A study of Mus musculus with 6 samples.

Results

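The genes described here carry out mitosis: the kinases and cyclins that drive entry, the spindle checkpoint, the kinetochore, the kinesins, the anaphase-promoting complex and the proteins of cytokinesis. They were named as a list of 60 gene symbols chosen by function, at a time when earlier results of these data were known, and all 60 were found among the 51912 mouse genes of a table of RNA sequencing counts. The table covers EL4, a mouse T-cell lymphoma line labelled as T lymphocyte cells of wild-type genotype. Of 6 libraries, 3 were of cells given vehicle and 3 of cells given RGFP966 at 10 µM, a compound that blocks the chromatin enzyme HDAC3, with either agent given for 24 h. The vehicle is not named in the labels. All groups are 1 cell line, and the labels leave unsaid if libraries within a group are from separate cultures, so p-values measure the spread between these libraries, which may be technical.

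As background, a cell enters mitosis when cyclin B and CDK1 become active, a step held back by the kinase WEE1 and released by CDC25 phosphatases. The spindle checkpoint then withholds the coactivator CDC20 from the anaphase-promoting complex, a ubiquitin ligase, until every kinetochore is attached to microtubules. Once released, the ligase marks cyclin B and securin for destruction, separase opens the cohesin rings, and the coactivator CDH1, encoded by Fzr1, keeps the ligase active through mitotic exit. Many of these genes are transcribed late in the cell cycle, under factors such as FOXM1, B-MYB and the MuvB core, so their messages are abundant in dividing cells such as a lymphoma line.

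Library totals ran from 12935443 to 16451017 counts and were lower in RGFP966 libraries by 13.3% on average (exact permutation test, two-sided, p = 0.1, the lowest that 3 against 3 allows). As a check on the label, 13 T cell markers were measured, and 12 of them were above 10 CPM in every library, Cd3e, Cd3d, Cd3g and Lck included. Their summed levels were 2865 to 2890 CPM (the count scaled to library size with TMM factors) with vehicle and 2967 to 3028 CPM with RGFP966, and Trbc1 was under 1 CPM. The extraction text speaks of retinas, but 8 of 10 retina markers were under 1 CPM in every library, 3 of them at 0, and the list summed to between 4.34 and 4.73 CPM with vehicle and between 4.34 and 4.62 with RGFP966. Endothelial and fibroblast lists summed higher with RGFP966, at 53.8 to 56.4 against 65.8 to 68.9 CPM and at 44.2 to 45.4 against 54.7 to 57.3 CPM. Most of that came from Pecam1 and Pdgfra, with a smaller part from Tek, while Kdr was at 0 in all libraries and Cdh5, Col1a1, Col1a2, Dcn and Lum were at or under 1.20 CPM. Their part in the results was not tested. With RGFP966, 1543 of 13484 tested genes rose and 1602 fell; with upper-quartile factors these were 1838 and 1270, and the mitosis genes then counted 4 higher and 25 lower.

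Falls outnumbered rises among the mitosis genes with RGFP966, and most were small. All 60 genes passed the filter on low counts, and 29 fell, 3 rose and 28 were not called at an adjusted p under 0.05. Among all genes tested 11.9% were called lower and 11.4% higher. Among tested genes with a mean of 20 CPM or more, a level that every one of the 60 reached, the shares were 18.4% and 12.6%. The median log2 fold change (RGFP966 over vehicle) of the 60 genes was -0.13, beside -0.00 for all genes tested and -0.02 for those at 20 CPM or more. The median of the falls was a change of -14.5%, from -7.94% for Aurkb to -31.9% for Cdc20, and 2 genes, Cdc20 and Anln, fell by more than 20%.

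Summed over the 60 genes, the level was 9201, 9264 and 9235 CPM in vehicle libraries 1 to 3 and 8708, 8730.2 and 8530.1 CPM in RGFP966 libraries 1 to 3. All RGFP966 sums lay below all vehicle sums, and the mean difference was -6.25%. Top2a alone holds the largest share of this sum and rose; without it the difference was -8.10%. In bulk RNA, fewer cells in mitosis and less message per mitotic cell cannot be told apart. In single genes, all 3 RGFP966 libraries lay below all 3 vehicle libraries for 34 of the 60 and above them for 4, where the shares of all genes tested were 18.5% and 17.8%. Those shares include genes under 20 CPM, and the shares at 20 CPM or more were not computed. RGFP966 library 3 stood lowest: its median difference from the vehicle mean over the 60 genes was -0.15 on the log2 scale, against -0.11 in the other two. Without that library 21 genes were called lower and the median was -0.10.

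**Figure D1:**
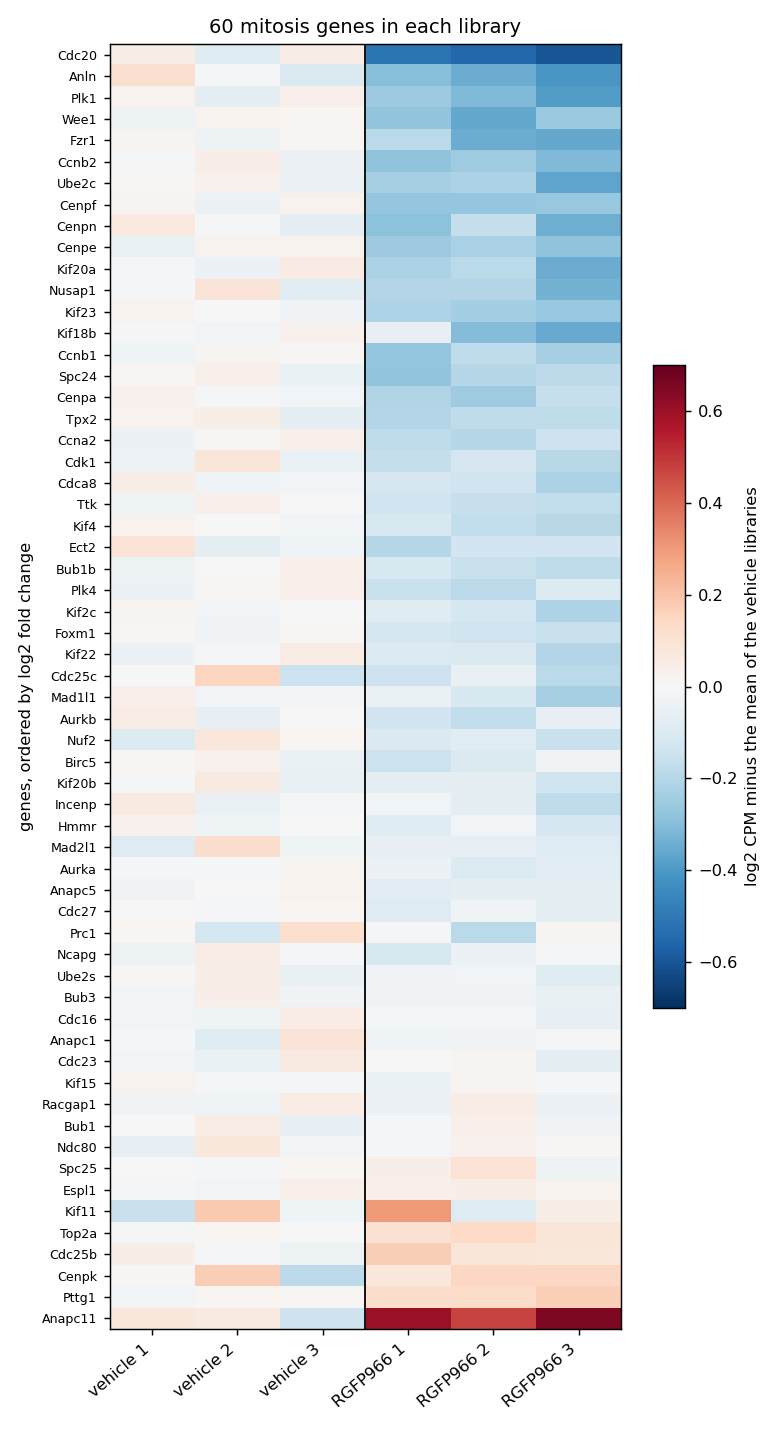
Each row is 1 of the 60 mitosis genes, ordered by log2 fold change, and each column is 1 library; colour gives log2 CPM minus the mean of the 3 vehicle libraries, blue for lower and red for higher. Cdc20, at the top, is the most strongly lowered in all 3 RGFP966 libraries, and Anapc11, at the bottom, the most strongly raised.

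**Figure D2:**
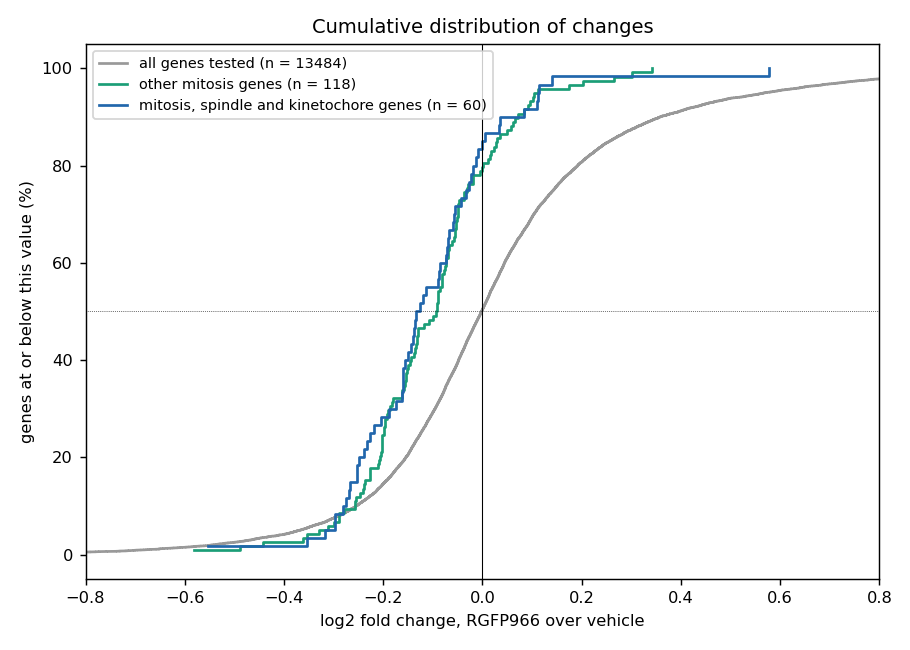
Cumulative distributions of log2 fold change for the 60 genes (blue), 118 other mitosis genes (green) and all 13484 genes tested (grey), with the horizontal axis limited to the central range. The median of the 60 genes lies at -0.13 and that of the other mitosis genes at -0.09, with that of all genes near 0.

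Promoter sequence was examined for motifs of cell cycle genes, and 3 promoters are shown. They are those of the 2 called genes of smallest p that hold a CHR match, and that of the called gene of smallest p without one. The CHR, or cell cycle genes homology region, is the element that MuvB complexes bind, and the CCAAT box is bound by NF-Y. Windows from RefSeq on GRCm38.p6 span 250 bases before to 50 after the start of a gene, and 50 of the 60 genes have one. The words searched on both strands were TTTGAA and TTCGAA for the CHR, CCAAT for the CCAAT box, and TTTCCCGC, TTTCGCGC, TTTGCCGC and TTTGGCGC for E2F, none of which contains another. The tandem element CDE with CHR was searched as GCGG, 4 bases of any kind and a CHR word, which it holds by construction. Of each promoter, 170 bases before and 27 after the start are printed, 5′ to 3′ on the strand of the gene, with CHR and CCAAT matches in capitals. They are Cdc20 at chr4:118437317-118437513, minus strand, Anln at chr9:22389180-22389376, minus strand, and Anapc11 at chr11:120598251-120598447, plus strand.
Cdc20: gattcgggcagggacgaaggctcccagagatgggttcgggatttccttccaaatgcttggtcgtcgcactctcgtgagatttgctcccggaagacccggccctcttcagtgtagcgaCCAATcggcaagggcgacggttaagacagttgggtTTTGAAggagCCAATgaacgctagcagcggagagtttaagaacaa
Anln: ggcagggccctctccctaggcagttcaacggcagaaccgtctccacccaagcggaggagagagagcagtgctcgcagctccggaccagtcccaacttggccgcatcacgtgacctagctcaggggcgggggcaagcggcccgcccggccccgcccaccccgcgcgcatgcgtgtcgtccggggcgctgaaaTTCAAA
Anapc11: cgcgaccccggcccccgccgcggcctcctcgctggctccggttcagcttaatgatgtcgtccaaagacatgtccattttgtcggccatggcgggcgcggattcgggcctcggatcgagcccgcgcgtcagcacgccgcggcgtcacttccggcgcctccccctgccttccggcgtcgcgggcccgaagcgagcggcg
In Cdc20 the CHR match begins at base -18 from the start, between CCAAT boxes that begin at -53 and -8. In Anln a CHR match on the opposite strand begins at base 22, and another begins at base 29, beyond the printed stretch. The first of 2 Anapc11 windows is shown; neither holds a CHR match, and its single CCAAT match, on the opposite strand, begins at base 28, also beyond the stretch.

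A CHR match was present in 34 of the 50 genes with a window (68%), and in 16.9% of the genes tested that have one. A CCAAT box was present in 35 (70%), against 43.3% of the genes tested. E2F words were present in 3 (6%), against 4.85%. CDE with CHR was present in 3 (6%), against 0.278%. In 101 other mitosis genes with a window, drawn from a list of 118, the shares were 41.6% for the CHR, 58.4% for the CCAAT box, 15.8% for E2F words and 2.97% for CDE with CHR; the E2F share there was the higher of the pair of lists and the others were lower. Among the 22 genes called lower that have a window, 18 held a CHR match and 19 a CCAAT box. Among the other 28, 16 held a CHR match and 16 a CCAAT box. Of the genes called higher, Top2a held 4 CHR matches, Cdc25b held 1 and Anapc11 held 0. Ccnb1, Fzr1, Cenpe and Nusap1 were called lower and have a window without a CHR match. Whether either motif goes with the falls was not tested. By all windows in the RefSeq table, counted singly, 19.2% held a CHR match, 37.4% a CCAAT box and 2.26% an E2F word. These matches describe letters in a window, and binding was not measured.

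Among CDK1, its cyclins and its regulators, 5 of 7 genes fell and 1 rose. Beside this and the counts by role below stand 11.9% of all genes tested called lower and 11.4% called higher. At 20 CPM or more these shares were 18.4% and 12.6%. Many roles hold too few genes to set against these shares, and no role was tested as a set. Ccnb1, the gene of cyclin B1, measured 262, 271 and 268 CPM in vehicle libraries 1 to 3 and 221, 236 and 228 CPM in RGFP966 libraries 1 to 3. Ccnb2, the gene of cyclin B2, measured 125, 129 and 122 CPM in vehicle libraries 1 to 3 and 103, 105 and 101 CPM in RGFP966 libraries 1 to 3. In both, every RGFP966 library lay below every vehicle library. The log2 fold change of Ccnb1 was -0.23 ± 0.04 (SE, edgeR adjusted p = 1.12e-05) and that of Ccnb2 -0.28 ± 0.04 (SE, edgeR adjusted p = 2.90e-06). Per kilobase of exon, Ccnb2 stood at 81.9 and Ccnb1 at 63.3 CPM in vehicle libraries, the reverse of their order by CPM. The lengths are of all annotated exons merged, 1531 bases for Ccnb2 and 4217 for Ccnb1, so this order depends on the annotation. Of the Ccnb1 sequence 23.4% is shared with other annotated genes, Ccnb1-ps most, so its count is open to shared reads; Ccnb1-ps itself held 107 to 164 counts per library.

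Cdk1, which encodes the kinase they activate, measured 227, 246 and 225 CPM in vehicle libraries 1 to 3 and 207, 214 and 203 CPM in RGFP966 libraries 1 to 3. Its groups did not overlap, and its log2 fold change was -0.16 ± 0.04 (SE, edgeR adjusted p = 2.26e-03). Wee1, the kinase gene that restrains CDK1, measured 69.5, 72.4 and 71.9 CPM in vehicle libraries 1 to 3 and 58.9, 55.5 and 59.5 CPM in RGFP966 libraries 1 to 3. That was a fall of 18.6%, with a log2 fold change of -0.30 ± 0.05 (SE, edgeR adjusted p = 2.67e-05), in the same direction as the cyclins. Ccna2, the gene of cyclin A2, which acts from S phase into early mitosis, fell by 0.17 on the log2 scale (edgeR adjusted p = 1.66e-03); 12.5% of its exons overlap Exosc9 on the other strand. Cdc25b, a phosphatase gene that activates CDK1, rose by 0.11 on the log2 scale (edgeR adjusted p = 0.0491), near the threshold. Cdc25c, which encodes the related phosphatase of mitotic entry, had a log2 fold change of -0.13 (edgeR adjusted p = 0.222), was not called, and shares 12.7% of its exons with Gm3550. The call of Cdc25b was lost in 7 of 16 alternatives, with an adjusted p of 0.0912 with no filter, 0.0862 in the DESeq2 Wald test, 0.0526 with limma-voom, 0.0791 leaving out vehicle library 2, 0.141 leaving out vehicle library 3, 0.282 leaving out RGFP966 library 1 and 0.0582 leaving out RGFP966 library 2; over all alternatives it ran from 0.0103 to 0.282.

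Of the Polo-like and Aurora kinase genes, 2 of 4 fell. Plk1, whose kinase acts at entry, centrosomes, kinetochores and cytokinesis (mm10, GENCODE M21: chromosome 7, 122159439 to 122169873, plus strand, ENSMUSG00000030867), measured 132, 124 and 133 CPM in vehicle libraries 1 to 3 and 109, 104 and 98.7 CPM in RGFP966 libraries 1 to 3. Plk4, the kinase gene of centriole duplication, measured 54.0, 55.8 and 56.9 CPM in vehicle libraries 1 to 3 and 49.8, 48.9 and 52.0 CPM in RGFP966 libraries 1 to 3. In both the groups did not overlap, with RGFP966 lower. The log2 fold change of Plk1 was -0.32 ± 0.05 (SE, edgeR adjusted p = 3.87e-07), and that of Plk4 was -0.14 ± 0.06 (SE, edgeR adjusted p = 0.0656), not called; with offsets for GC content Plk4 had an adjusted p of 0.0299, and with those offsets and a block 0.0239. The log2 ratio of Plk1 to Plk4 counts, which needs no scaling between libraries, averaged 1.22 ± 0.06 (SD, n = 3) in vehicle and 1.05 ± 0.11 in RGFP966 libraries, a difference of -0.17 (exact permutation test, two-sided, p = 0.1, the least this design can give; 0.2 adjusted over 4 pairs). Of the Plk1 sequence 10.4% is shared, Plk-ps1 most, a pseudogene with 18 to 42 counts per library.

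Aurka, the Aurora kinase gene of centrosomes and spindle poles, measured 62.0, 61.8 and 63.2 CPM in vehicle libraries 1 to 3 and 60.6, 58.3 and 59.3 CPM in RGFP966 libraries 1 to 3. Aurkb, the Aurora kinase gene of the chromosomal passenger complex, measured 132, 123 and 128 CPM in vehicle libraries 1 to 3 and 116, 113 and 123 CPM in RGFP966 libraries 1 to 3. The groups of Aurka did not overlap but lay close, and those of Aurkb touched at 123 CPM. Aurkb was called at a log2 fold change of -0.12 ± 0.04 (SE, edgeR adjusted p = 0.0466) and Aurka, at a log2 fold change of -0.07 ± 0.05 (SE, edgeR adjusted p = 0.393), was not. Their count ratio averaged -1.03 ± 0.05 (SD, n = 3) in vehicle and -0.98 ± 0.06 in RGFP966 libraries, a difference of 0.05 (two-sided exact permutation p = 0.3). The call of Aurkb was lost in 12 of 16 alternatives, with an adjusted p of 0.0553 with DESeq2 size factors, 0.119 with upper-quartile factors, 0.0903 with total count alone, 0.0619 with no filter, 0.0754 at a minimum mean of 5 CPM, 0.121 in the DESeq2 Wald test, 0.052 with limma-voom, 0.0594 with offsets for GC content, 0.227 leaving out vehicle library 1, 0.112 leaving out vehicle library 3, 0.137 leaving out RGFP966 library 1 and 0.203 leaving out RGFP966 library 2; over all alternatives it ran from 0.0158 to 0.227.

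In the spindle checkpoint, which delays anaphase until kinetochores are attached, 2 of 6 genes fell. Bub1b, the gene of BUBR1, a part of the complex that inhibits CDC20, measured 182, 186 and 191 CPM in vehicle libraries 1 to 3 and 172, 167 and 165 CPM in RGFP966 libraries 1 to 3. Ttk, the gene of the kinase MPS1 that starts the signal, measured 74.9, 78.3 and 76.2 CPM in vehicle libraries 1 to 3 and 69.3, 68.3 and 67.7 CPM in RGFP966 libraries 1 to 3. Neither gene's groups overlapped. Bub1b changed by a log2 fold change of -0.15 ± 0.04 (SE, edgeR adjusted p = 4.59e-03) and Ttk by a log2 fold change of -0.16 ± 0.05 (SE, edgeR adjusted p = 0.0156). Bub1, the kinase gene that recruits checkpoint proteins to kinetochores, is in the plot of levels by library and showed no detectable difference, at a log2 fold change of -0.00 ± 0.04 (SE, edgeR adjusted p = 0.995). Bub3, the partner of both BUB proteins, had a log2 fold change of -0.03 (edgeR adjusted p = 0.591) and Mad2l1, the gene of MAD2, -0.07 (edgeR adjusted p = 0.255). Mad1l1, which encodes the anchor of MAD2, measured 36.9, 35.5 and 35.5 CPM in vehicle libraries 1 to 3 and 34.9, 33.4 and 30.6 CPM in RGFP966 libraries 1 to 3. Its groups did not overlap, but at a log2 fold change of -0.13 (edgeR adjusted p = 0.205) it was not called. The call of Ttk was lost in 3 of 16 alternatives, with an adjusted p of 0.0563 in the DESeq2 Wald test, 0.0517 leaving out vehicle library 2 and 0.0772 leaving out RGFP966 library 3; over all alternatives it ran from 3.36e-03 to 0.0772.

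The anaphase-promoting complex showed the largest fall and the largest rise of the 60 genes. Cdc20 (chromosome 4, 118432901 to 118437352, minus strand, ENSMUSG00000006398) measured 269, 247 and 270.4 CPM in vehicle libraries 1 to 3 and 184, 179 and 173 CPM in RGFP966 libraries 1 to 3. The RGFP966 libraries lay well below vehicle, a fall of 31.9%, with a log2 fold change of -0.55 ± 0.04 (SE, edgeR adjusted p = 1.88e-15), rank 14 by p of the 13484 genes tested. Over the alternatives the log2 fold change of Cdc20 ran from -0.60 to -0.53. Per kilobase of exon Cdc20 was the most abundant of the 60 in vehicle libraries, at 140.5 CPM, ahead of Top2a at 117.5. The lengths are of all annotated exons merged, 1868 bases for Cdc20, so this order depends on the annotation. By CPM alone Cdc20, at a mean of 262 in vehicle libraries, stood below Top2a at 1059, Anapc5 at 536.5, Anapc1 at 405.8, Ube2s at 340.2 and Ccnb1 at 267. Of the Cdc20 sequence 10.6% is shared, most with Gm7856, which held 0 or 1 counts per library. Elovl1, on the other strand, overlaps 2.84% of Cdc20 exons and also differed, at -0.28 (edgeR adjusted p = 2.56e-06).

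Fzr1, the coactivator gene of mitotic exit and G1, measured 97.8, 94.3 and 97.6 CPM in vehicle libraries 1 to 3 and 84.7, 76.0 and 75.2 CPM in RGFP966 libraries 1 to 3. Its RGFP966 libraries also lay below all vehicle libraries, at a log2 fold change of -0.30 ± 0.05 (SE, edgeR adjusted p = 8.21e-06). The fold change of Cdc20 was the larger in size. The log2 ratio of Cdc20 to Fzr1 counts was 1.46, 1.39 and 1.47 in vehicle libraries 1 to 3 and 1.12, 1.24 and 1.21 in RGFP966 libraries 1 to 3. The groups of the ratio did not overlap, with a difference of -0.25 (exact permutation test, two-sided, p = 0.1, which 3 against 3 cannot go below; 0.2 adjusted over 4 pairs), so the design cannot bring it past 0.05. Ube2c, the E2 enzyme gene that starts ubiquitin chains for the complex, fell by 0.28 on the log2 scale (edgeR adjusted p = 1.01e-05). Tnnc2 overlaps 22.8% of the Ube2c exons on the other strand but held 0 or 1 counts per library. Ube2s, the E2 gene that extends the chains, had a log2 fold change of -0.04 (edgeR adjusted p = 0.452).

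Anapc11, the gene of the RING subunit that binds the E2 enzymes (chromosome 11, 120598421 to 120608198, plus strand, ENSMUSG00000025135), measured 25.6, 25.4 and 22.0 CPM in vehicle libraries 1 to 3 and 36.9, 33.7 and 38.1 CPM in RGFP966 libraries 1 to 3. Every RGFP966 library exceeded every vehicle library, a rise of 49.3%, at a log2 fold change of 0.58 ± 0.08 (SE, edgeR adjusted p = 7.38e-08). It was called in all 16 alternatives, with a log2 fold change from 0.52 to 0.63. It is also the member of lowest level, at a mean of 24.3 CPM in vehicle libraries and 4.81 CPM per kilobase of merged exons. The other 5 core subunit genes among the 60 were not called, with these log2 fold changes: Anapc5 at -0.07, Cdc27 at -0.06, Cdc16 at -0.03, Anapc1 at -0.02 and Cdc23 at -0.02. Anapc1 and Anapc5 belong to the scaffold platform and Cdc16, Cdc23 and Cdc27 to the arm of repeat proteins that binds coactivators. Cdc23 shares 13.4% of its exons with Kif20a on the other strand. Of the 9 further genes of the complex and its inhibitor Fbxo5 in the list of other mitosis genes, 2 rose and 7 were not called. Among all genes tested 11.4% were called higher. The rises were Anapc10, a substrate receptor subunit, at a log2 fold change of 0.30 (edgeR adjusted p = 4.73e-03), and Cdc26, which stabilises CDC16, at a log2 fold change of 0.17 (edgeR adjusted p = 0.0232). Without RGFP966 library 1 the adjusted p of Anapc10 was 0.0637. The call of Cdc26 was lost in 5 of 16 alternatives, with an adjusted p of 0.0659 in the DESeq2 Wald test, 0.0768 leaving out vehicle library 1, 0.105 leaving out vehicle library 2, 0.0883 leaving out RGFP966 library 1 and 0.0829 leaving out RGFP966 library 2; over all alternatives it ran from 7.69e-03 to 0.105.

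Securin and separase, the target of the ligase and the protease that it holds, did not pass the test. Pttg1, the securin gene, measured 46.9, 47.8 and 47.6 CPM in vehicle libraries 1 to 3 and 51.7, 51.8 and 53.2 CPM in RGFP966 libraries 1 to 3. Every RGFP966 library exceeded every vehicle library, at a log2 fold change of 0.14 ± 0.06 (SE, edgeR adjusted p = 0.0794); its adjusted p was 0.0374 with upper-quartile factors and 0.0407 at a minimum mean of 5 CPM. Espl1, the separase gene, measured 186, 185 and 193 CPM in vehicle libraries 1 to 3 and 193, 194 and 191 CPM in RGFP966 libraries 1 to 3. Its groups overlapped, at a log2 fold change of 0.03 (edgeR adjusted p = 0.583).

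**Figure D3:**
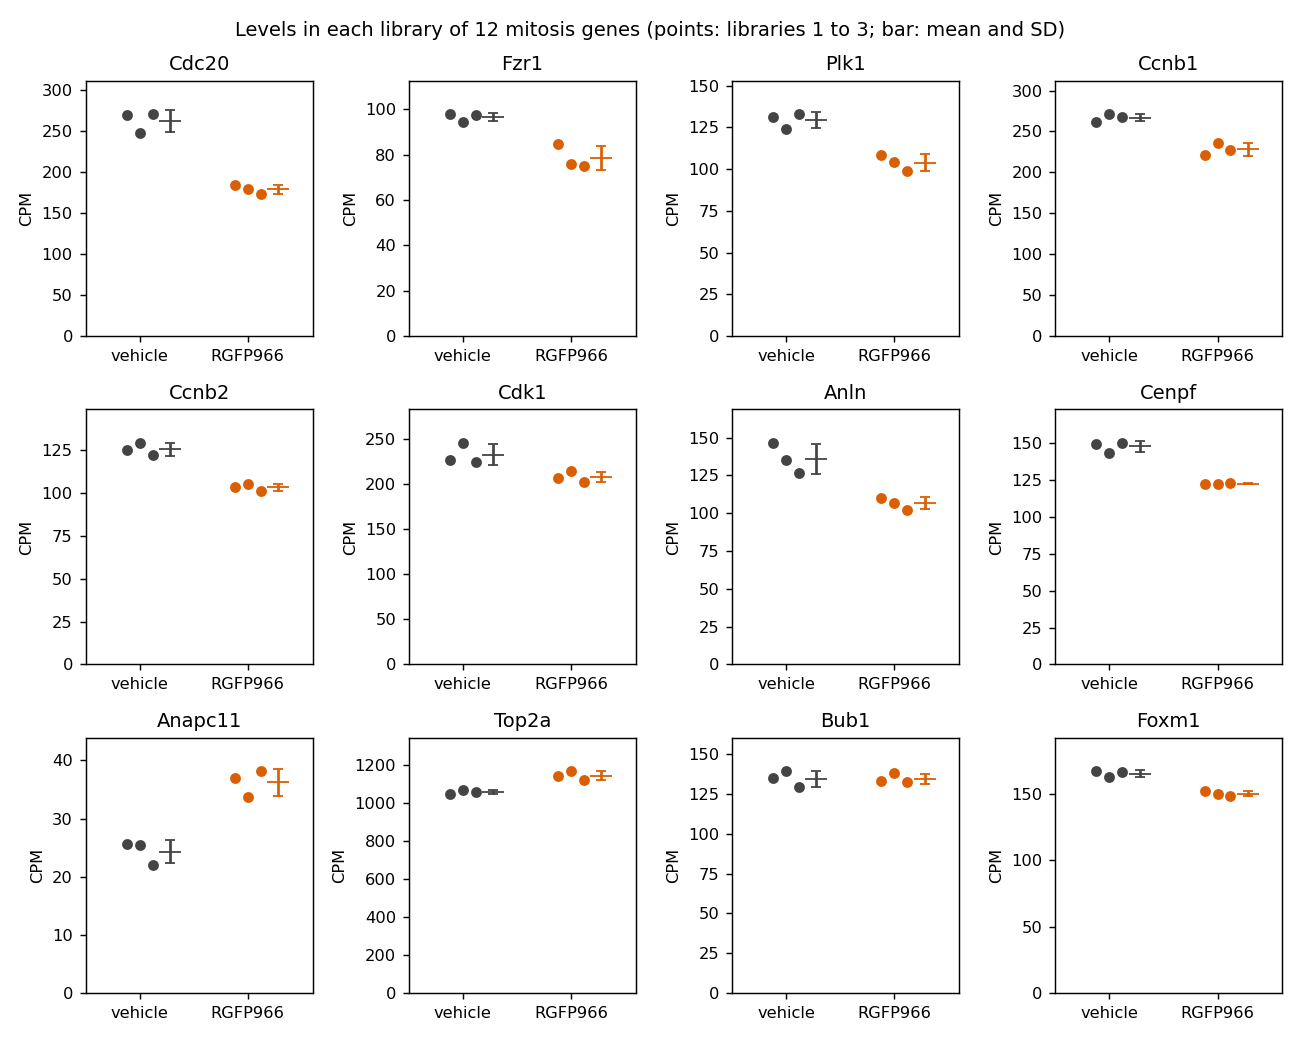
CPM in each library for 12 mitosis genes, with points for libraries 1 to 3 of each group (vehicle in grey, RGFP966 in orange), a bar for the mean and SD of 3 libraries, and axes from 0. Cdc20 falls from 247 to 270.4 CPM in vehicle to 173 to 184 CPM in RGFP966 libraries, Anapc11 rises from 22.0 to 25.6 CPM to 33.7 to 38.1 CPM, and the groups of Bub1 overlap.

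Among centromere and kinetochore genes, 5 of 9 fell and the other 4 were not called. Cenpf, the gene of a large protein of the outer kinetochore, measured 149.8, 144 and 150.5 CPM in vehicle libraries 1 to 3 and 122, 123 and 123 CPM in RGFP966 libraries 1 to 3. Cenpe, the gene of the kinetochore motor that moves chromosomes to the spindle equator, measured 164, 173 and 172 CPM in vehicle libraries 1 to 3 and 142, 145 and 139.8 CPM in RGFP966 libraries 1 to 3. Cenpa, which encodes the histone variant that marks centromeres, measured 152, 147 and 146 CPM in vehicle libraries 1 to 3 and 128, 125 and 132 CPM in RGFP966 libraries 1 to 3. In all of them the RGFP966 libraries lay below vehicle and close to each other. The log2 fold changes were -0.27 ± 0.04 (SE, edgeR adjusted p = 2.48e-06) for Cenpf, -0.25 ± 0.04 (SE, edgeR adjusted p = 5.18e-06) for Cenpe and -0.20 ± 0.04 (SE, edgeR adjusted p = 2.24e-04) for Cenpa.

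Cenpn, whose protein reads the centromeric nucleosome, fell by 0.27 on the log2 scale (edgeR adjusted p = 1.89e-03). Cenpk, another gene of the constitutive centromere network, had a log2 fold change of 0.11 (edgeR adjusted p = 0.351) and was not called. The NDC80 complex, which grips microtubules, gave unequal values. Its subunit gene Spc24 fell by 0.22 (edgeR adjusted p = 3.95e-03), while Nuf2 had a log2 fold change of -0.11 (edgeR adjusted p = 0.0763), Ndc80 0.00 (edgeR adjusted p = 0.968) and Spc25 0.03 (edgeR adjusted p = 0.732). Nuf2 passed the threshold in 3 alternatives, with an adjusted p of 0.0242 without vehicle library 1, 0.0287 with offsets for GC content and 0.0203 with those offsets and a block. The differences between these subunits were not tested.

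Of the kinesin genes, 6 of 9 fell. Kif23, the motor gene of the centralspindlin complex of cytokinesis, measured 121, 119 and 117 CPM in vehicle libraries 1 to 3 and 103, 101 and 99.1 CPM in RGFP966 libraries 1 to 3. Kif20a, a motor gene of the late spindle and midbody, measured 103, 101 and 108 CPM in vehicle libraries 1 to 3 and 89.0, 91.1 and 81.6 CPM in RGFP966 libraries 1 to 3. Both groups were separate, at a log2 fold change of -0.24 ± 0.04 (SE, edgeR adjusted p = 4.68e-05) for Kif23 and -0.25 ± 0.05 (SE, edgeR adjusted p = 8.35e-05) for Kif20a. Cdc23, not called, overlaps 29.3% of the Kif20a exons on the other strand, and the labels do not say whether counting used strand. Kif18b, a gene of a motor that shortens astral microtubules, measured 63.6, 63.3 and 65.5 CPM in vehicle libraries 1 to 3 and 61.6, 51.9 and 50.3 CPM in RGFP966 libraries 1 to 3. RGFP966 library 1 lay close to vehicle and the other two lower, at a log2 fold change of -0.23 ± 0.06 (SE, edgeR adjusted p = 3.17e-03); without RGFP966 library 3 its adjusted p was 0.0756, the top of a range over alternatives that starts at 1.89e-04.

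The chromokinesin gene Kif4 fell by a log2 fold change of -0.16 (edgeR adjusted p = 0.0125), Kif2c, the gene of a depolymerase that corrects attachments, by a log2 fold change of -0.14 (edgeR adjusted p = 0.0192), and Kif22, another chromokinesin gene, by a log2 fold change of -0.14 (edgeR adjusted p = 0.0278). Pdzd11 overlaps 15.1% of the Kif4 exons and rose, at a log2 fold change of 0.27 (edgeR adjusted p = 0.0115). These 3 calls were less firm. The call of Kif4 was lost in 2 of 16 alternatives, with an adjusted p of 0.0581 leaving out vehicle library 1 and 0.0876 leaving out RGFP966 library 3; over all alternatives it ran from 3.28e-03 to 0.0876. The call of Kif2c was lost in 5 of 16 alternatives, with an adjusted p of 0.0526 with upper-quartile factors, 0.0619 in the DESeq2 Wald test, 0.0781 leaving out vehicle library 1, 0.0566 leaving out vehicle library 3 and 0.206 leaving out RGFP966 library 3; over all alternatives it ran from 7.98e-03 to 0.206. The call of Kif22 was lost in 5 of 16 alternatives, with an adjusted p of 0.0722 with upper-quartile factors, 0.0512 with total count alone, 0.0889 in the DESeq2 Wald test, 0.17 leaving out vehicle library 3 and 0.245 leaving out RGFP966 library 3; over all alternatives it ran from 9.84e-03 to 0.245. Kif11, the gene of the motor that separates spindle poles, chosen after its values were seen, varied widely within each group: it measured 78.0, 98.5 and 85.1 CPM in vehicle libraries 1 to 3 and 106, 81.5 and 89.3 CPM in RGFP966 libraries 1 to 3. Its SE of 0.144 was the largest of the 60, so a difference was not detectable at a log2 fold change of 0.08 (edgeR adjusted p = 0.755). Kif15, which can take its place, had a log2 fold change of -0.01 (edgeR adjusted p = 0.872), and Kif20b, a motor gene of cytokinesis, -0.09 (edgeR adjusted p = 0.135).

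Of 4 genes of spindle assembly, Nusap1 and Tpx2 fell. Nusap1, the gene of a microtubule-bundling protein, measured 109, 117 and 104 CPM in vehicle libraries 1 to 3 and 95.4, 95.4 and 87.3 CPM in RGFP966 libraries 1 to 3. Tpx2, which encodes the activator of Aurora A on the spindle, measured 229.7, 232 and 216 CPM in vehicle libraries 1 to 3 and 196, 199 and 199.5 CPM in RGFP966 libraries 1 to 3. The groups did not overlap in either, at a log2 fold change of -0.25 ± 0.05 (SE, edgeR adjusted p = 1.08e-04) for Nusap1 and -0.19 ± 0.04 (SE, edgeR adjusted p = 2.85e-04) for Tpx2. Hmmr, the gene of a spindle pole protein, measured 123, 118 and 121 CPM in vehicle libraries 1 to 3 and 114, 119 and 111 CPM in RGFP966 libraries 1 to 3. Its groups overlapped, at a log2 fold change of -0.07 (edgeR adjusted p = 0.246). Prc1, the gene of the protein that bundles antiparallel microtubules at the midzone, had a log2 fold change of -0.06 (edgeR adjusted p = 0.568); Rccd1 overlaps 11.1% of its exons.

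In the chromosomal passenger complex, which corrects faulty attachments with Aurora B, 1 of 3 further genes fell. Cdca8, the borealin gene, measured 138, 130.3 and 131 CPM in vehicle libraries 1 to 3 and 122, 121 and 114 CPM in RGFP966 libraries 1 to 3. Birc5, the survivin gene, measured 105, 106 and 101 CPM in vehicle libraries 1 to 3 and 93.8, 97.2 and 102 CPM in RGFP966 libraries 1 to 3. Incenp, the gene of the scaffold, measured 199, 184 and 188 CPM in vehicle libraries 1 to 3 and 187, 182 and 168 CPM in RGFP966 libraries 1 to 3. The groups were separate for Cdca8 alone of the 3, at a log2 fold change of -0.16 ± 0.04 (SE, edgeR adjusted p = 5.09e-03), while Birc5 stood at a log2 fold change of -0.09 (edgeR adjusted p = 0.172) and Incenp at a log2 fold change of -0.09 (edgeR adjusted p = 0.145). The call of Cdca8 was lost in 2 of 16 alternatives, with an adjusted p of 0.0538 leaving out vehicle library 1 and 0.0841 leaving out RGFP966 library 3; over all alternatives it ran from 6.77e-04 to 0.0841.

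Cytokinesis genes held the second largest fall. Anln, the gene of anillin, a scaffold of the contractile ring (chromosome 9, 22332012 to 22389188, minus strand, ENSMUSG00000036777), measured 147, 135 and 127 CPM in vehicle libraries 1 to 3 and 110.3, 107 and 102 CPM in RGFP966 libraries 1 to 3. Every RGFP966 library lay below every vehicle library, a fall of 21.8%, at a log2 fold change of -0.35 ± 0.05 (SE, edgeR adjusted p = 1.05e-07). Ect2, the exchange factor gene that activates RhoA at the cell equator, measured 77.9, 69.3 and 71.3 CPM in vehicle libraries 1 to 3 and 63.4, 66.3 and 66.2 CPM in RGFP966 libraries 1 to 3. Racgap1, which encodes its partner in centralspindlin, measured 258, 257 and 272 CPM in vehicle libraries 1 to 3 and 254, 272 and 255 CPM in RGFP966 libraries 1 to 3. Ect2 fell, at a log2 fold change of -0.16 ± 0.05 (SE, edgeR adjusted p = 0.0263), and Racgap1 overlapped between groups, at a log2 fold change of -0.01 (edgeR adjusted p = 0.898). Kif23, the other centralspindlin gene, fell by 0.24 as given above; the difference between the pair was not tested. The call of Ect2 was lost in 5 of 16 alternatives, with an adjusted p of 0.0654 with upper-quartile factors, 0.0907 in the DESeq2 Wald test, 0.237 leaving out vehicle library 1, 0.121 leaving out RGFP966 library 1 and 0.0652 leaving out RGFP966 library 3; over all alternatives it ran from 9.55e-03 to 0.237.

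**Figure D4:**
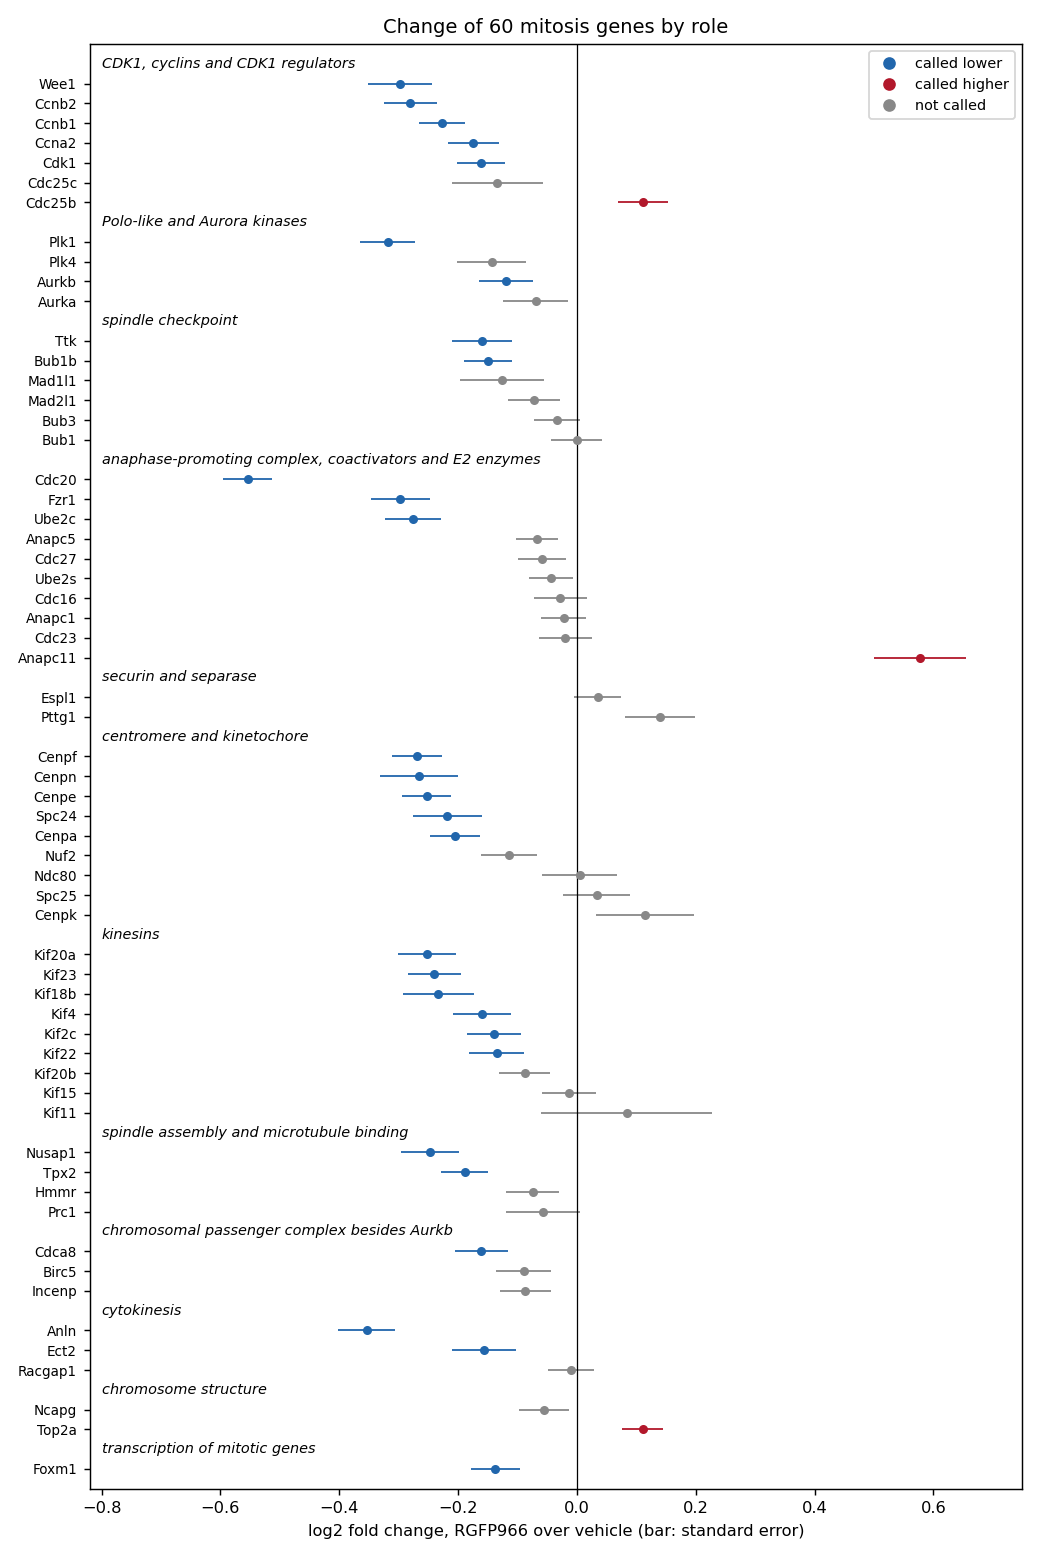
Log2 fold change (RGFP966 over vehicle) of each of the 60 genes, grouped by role, with bars of 1 standard error; blue marks genes called lower, red genes called higher and grey genes not called at an edgeR adjusted p under 0.05. Of the 60 points, 51 lie below 0, with Cdc20 at -0.55 and Anapc11 at 0.58 as the extremes.

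Of the chromosome structure genes, 1 of 2 rose. Top2a, the topoisomerase gene that untangles sister chromatids, measured 1047, 1070 and 1060 CPM in vehicle libraries 1 to 3 and 1141, 1168 and 1123 CPM in RGFP966 libraries 1 to 3. Every RGFP966 library exceeded every vehicle library, at a log2 fold change of 0.11 ± 0.03 (SE, edgeR adjusted p = 0.0135). Ncapg, a condensin subunit gene, measured 149.6, 159 and 152 CPM in vehicle libraries 1 to 3 and 142, 149 and 152 CPM in RGFP966 libraries 1 to 3. Its groups overlapped, at a log2 fold change of -0.06 (edgeR adjusted p = 0.385); Lcorl, which overlaps 13.4% of its exons, was itself lower, at -0.17 (edgeR adjusted p = 0.0108). The call of Top2a was lost in 4 of 16 alternatives, with an adjusted p of 0.0503 with offsets for GC content, 0.061 leaving out vehicle library 1, 0.0676 leaving out RGFP966 library 1 and 0.078 leaving out RGFP966 library 2; over all alternatives it ran from 2.02e-03 to 0.078.

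Foxm1, the gene of a transcription factor that raises many of the genes above late in the cell cycle, measured 167, 162 and 166 CPM in vehicle libraries 1 to 3 and 152, 150.2 and 148 CPM in RGFP966 libraries 1 to 3. All RGFP966 libraries lay below all vehicle libraries, a fall of 9.09%, at a log2 fold change of -0.14 ± 0.04 (SE, edgeR adjusted p = 9.91e-03). The call of Foxm1 was lost in 2 of 16 alternatives, with an adjusted p of 0.0532 leaving out vehicle library 1 and 0.0682 leaving out RGFP966 library 3; over all alternatives it ran from 5.55e-03 to 0.0682. In a list of 13 other regulators of mitotic transcription, 6 fell (46.2%) and 1 rose (7.69%). Among all genes tested 11.9% were called lower and 11.4% higher. The falls were Mybl2, the B-MYB gene, at a log2 fold change of -0.18 (edgeR adjusted p = 1.65e-03); Lin9 at a log2 fold change of -0.20 (edgeR adjusted p = 0.0318) and Lin54 at a log2 fold change of -0.14 (edgeR adjusted p = 0.0294), of the MuvB core; Rbl2, the gene of the repressor p130, at a log2 fold change of -0.19 (edgeR adjusted p = 0.0242); and Nfyb at a log2 fold change of -0.25 (edgeR adjusted p = 8.24e-04) and Nfyc at a log2 fold change of -0.21 (edgeR adjusted p = 2.56e-03), of the CCAAT-binding factor NF-Y. Calls of these 6 falls were not followed gene by gene over the alternatives. The rise was Tfdp1, an E2F partner gene, at a log2 fold change of 0.10 (edgeR adjusted p = 0.0339). The call of Tfdp1 was lost in 6 of 16 alternatives, with an adjusted p of 0.0683 with no filter, 0.0897 with offsets for GC content, 0.0807 with those offsets and the replicate number as a block, 0.121 leaving out vehicle library 1, 0.152 leaving out RGFP966 library 1 and 0.103 leaving out RGFP966 library 2; over all alternatives it ran from 6.45e-03 to 0.152. Several of these regulators are open to shared reads. Sequence shared with other genes made up 22.2% of Nfyc (Gm9144 most), 19.3% of Mybl2 (Gm3320 most) and 16.8% of Tfdp1 (Gm7390 most), and Gm45464 overlaps 21% of the Rbl2 exons on the other strand.

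Other mitosis genes were counted from a separate list. Of 118 mitosis genes outside the 60, all tested, 42 fell, 4 rose and 72 were not called, with a median log2 fold change of -0.09, where the shares of all genes tested were 11.9% lower and 11.4% higher. The 10 of smallest p comprised 9 falls and 1 rise. Aspm, the gene of a spindle pole protein, measured 154, 151 and 157 CPM in vehicle libraries 1 to 3 and 119, 118 and 122 CPM in RGFP966 libraries 1 to 3. Its groups were far apart, at a log2 fold change of -0.36 ± 0.04 (SE, edgeR adjusted p = 2.89e-09). Cenpm, a centromere network gene, measured 27.3, 29.0 and 27.7 CPM in vehicle libraries 1 to 3 and 19.5, 18.8 and 17.9 CPM in RGFP966 libraries 1 to 3. It had the largest fall of this list, 33.1%, at a log2 fold change of -0.58 ± 0.08 (SE, edgeR adjusted p = 3.74e-07). Cenpx, another centromere gene, fell by 0.44 on the log2 scale (edgeR adjusted p = 7.47e-07) and Pmf1, of the MIS12 complex, by 0.35 (edgeR adjusted p = 7.58e-06). Haus7 and Haus4, of the augmin complex that branches spindle microtubules, fell, with log2 fold changes of -0.49 (edgeR adjusted p = 7.52e-06) and -0.33 (edgeR adjusted p = 2.14e-05). Cdca2, Ckap2 and the kinase gene Pbk fell too, with log2 fold changes of -0.30, -0.29 and -0.24. The rise was Zwilch, of the complex that brings dynein and MAD proteins to kinetochores, which measured 56.5, 56.9 and 59.0 CPM in vehicle libraries 1 to 3 and 68.2, 75.0 and 75.3 CPM in RGFP966 libraries 1 to 3. Every RGFP966 library exceeded every vehicle library, at a log2 fold change of 0.34 ± 0.05 (SE, edgeR adjusted p = 2.88e-06); Lctl overlaps 5.93% of its exons.

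By role, falls numbered 13 of 25 among other spindle and kinesin genes, 7 of 31 among other kinetochore genes, 3 of 7 among other condensin genes, 3 of 10 among genes of cohesin, its protection and passenger recruitment, and 5 of 14 among other genes of mitotic entry and exit. Beside these stand 11.9% of all genes tested and 18.4% of those at 20 CPM or more; the kinetochore share, 22.6%, lay near the latter. A mixed list of 9 genes filed under cytokinesis held 5 falls: Cit, the citron kinase gene, and Rhoa, which act in cytokinesis, and Cdca2, Cdca3 and Mki67, which are not cytokinesis factors. Mki67, the gene of the proliferation marker Ki-67, chosen after its values were seen, averaged 1096 CPM with vehicle and 1027 CPM with RGFP966, at a log2 fold change of -0.09 (edgeR adjusted p = 0.0384). The call of Mki67 was not followed over the alternatives. For comparison, in a list of 42 replication and S-phase genes 14 fell (33.3%) and 4 rose (9.52%), with a median of -0.09; whether the mitosis genes differ from them was not tested. Over the 16 alternatives there were between 21 and 31 falls for the 60 genes and between 30 and 50 for the 118.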

How the data were processed

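RNA sequencing of 6 EL4 libraries was used, 3 given vehicle and 3 given RGFP966. The deposited values are raw read counts for 51912 Ensembl gene IDs, 1 column per library. Per the submitters' processing notes, the build was mm10 and the tools named, without roles, are HTSeq 0.6.0, TopHat2, HISAT2 2.1.0, CASAVA and Bowtie2 2.2.3. Which aligner, annotation and strand option gave the counts: not given in the sources used here. Libraries were prepared with a NEBNext Ultra RNA kit, per the labels.

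Symbols came from a gene name table covering 51633 IDs, and positions, merged exon lengths and overlaps from GENCODE M21, on the same assembly. Shared sequence is the percentage of 50-base transcript words also found in other genes. Counts of all libraries were fitted in edgeR 4.0.16 (R 4.3.3) with filterByExpr, TMM scaling and the robust quasi-likelihood test, group as the only term, and Benjamini-Hochberg adjustment over 13484 genes; a call is an adjusted p under 0.05. Standard errors were derived from each log2 fold change and its F statistic. In simulated data of 13484 genes, 50 genes drawn from all levels were changed at each fold size. There 48% of 1.25-fold and 76% of 1.5-fold changes were recovered. Far fewer genes were changed than were called in the real data, so these shares do not give the power for the 60 genes. Of the calls made on the simulated data, 6.71% were of unchanged genes, somewhat above the 0.05 set. The smallest count of any of the 60 genes was 344; precision given here covers counting and library spread, and duplicates cannot be told from separate molecules. Alternatives used DESeq2 1.42.0, limma 3.58.1, other scalings and filters, GC offsets, a replicate block, and each library left out. Between libraries of 1 group, the chi-square divided by its degrees of freedom, a variance relative to that of counting error, was 2.22 to 3.53. No pair held identical counts, and each library was treated as a sample. Whether this spread is technical is not known.

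Per-library values are given for up to 3 genes of smallest p in each role and for genes fixed by name, of which Cdk1 and Aurka were not already among those; all called members are named. Kif11 was added after its values were seen. Of the list of other mitosis genes, the 10 of smallest p, those called against the majority and the called regulators of transcription are named. The members and lists were chosen with earlier results of these data known. The library-total alternatives and the 20 CPM background were added after seeing the data.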

Additional observations from a re-analysis of the deposited data

How the results depend on the processing

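The count of falls among the 60 genes stayed within 1.5 times of 29 in each alternative, and 20 of the 29 genes kept their call in all 16. With 1 library left out, falls ran from 21 to 28 and rises from 1 to 3 among the 60, against 3 with all libraries. Rises were 1 without RGFP966 library 1 and 1 without RGFP966 library 2. Among the other mitosis genes falls ran from 30 to 39 and rises from 1 to 6. There, 2 rises were left without vehicle library 1 or RGFP966 library 2, and 1 without RGFP966 library 1, against 4 with all. The median log2 fold change of the 60 was -0.1068 with upper-quartile factors and ran from -0.1334 to -0.0958 with 1 library left out. The library total difference ran from -2618483 to -1701935 counts. Count ratios, on the log2 scale, ran from -0.28 to -0.22 for Cdc20 to Fzr1, -0.21 to -0.11 for Plk1 to Plk4, 0.04 to 0.08 for Ccnb1 to Ccnb2 (0.05 with all libraries, two-sided exact permutation p = 0.2) and 0.02 to 0.09 for Aurka to Aurkb. Genes that were not called and lie near 0 changed sign, and the cause was not tested. Bub1 (-0.0005) gave 0.0033 with DESeq2 size factors, 0.0227 with upper-quartile factors, 0.0138 with total count alone, 0.0144 at a minimum mean of 5 CPM, 0.0034 in the DESeq2 Wald test and 0.0006 with the replicate number as a block, and -0.0235 to 0.0251 with 1 library left out. Cdc23 (-0.0192) gave 0.0042 with upper-quartile factors, and -0.0430 to 0.0174 with 1 library left out. Anapc1 (-0.0223) gave 0.0013 with upper-quartile factors, and -0.0641 to 0.0286 with 1 library left out. Kif15 (-0.0134) gave 0.01 with upper-quartile factors, 0.0011 with total count alone and 0.0016 at a minimum mean of 5 CPM, and -0.0310 to 0.0023 with 1 library left out. Racgap1 (-0.0094) gave 0.014 with upper-quartile factors, 0.005 with total count alone and 0.0057 at a minimum mean of 5 CPM, and -0.0411 to 0.0219 with 1 library left out. Ndc80 (0.0049) gave -0.0179 with offsets for GC content and -0.0166 with those offsets and the replicate number as a block, and -0.0202 to 0.0435 with 1 library left out. Cdc16 (-0.0276) gave -0.0445 to 0.0041 with 1 library left out. Prc1 (-0.0572) gave -0.1180 to 0.0050 with 1 library left out. Kif11 (0.0837) gave -0.0301 to 0.1808 with 1 library left out. Same-numbered libraries deviated from their group means with correlations of -0.018, 0.013 and 0.008, so the labels' numbers were not taken to pair them; with the replicate number as a block 29 of the 60 fell and 3 rose, and 46 and 5 of the others. Most falls seen here were smaller than the smallest change simulated, so the simulation does not give the power for them. Other small changes may have gone undetected.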
